A study of Mus musculus with 20 samples.

Results

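The genes described here encode the steps that carry glucose into glycolysis and the pentose phosphate pathway. The list held 34 genes, of 59311 annotated in the deposited table, and members were taken as the rows whose gene symbol equalled a listed one. A row was found for 33 of them. The exception, Pgls, the lactonase of the oxidative pentose phosphate branch, shared a row with Fam129c, and its reads could not be told apart there. Of the 33, 31 passed the filter applied to all genes (a mean of at least 10 normalized counts in at least 1 of the 4 groups), as did 17248 genes in all. The remaining pair, Eno2 and Pdk1, was close to absent: Eno2 was above 0 in 1 library of 20, and Pdk1 in 3.

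The libraries came from 10 male C57BL/6J mice, 10 to 12 weeks old at the start, in which CCl4 (0.6 ml/kg) was injected over 4 weeks to induce liver fibrosis. Ac-6-FP (0.25 mg/kg), an MR1 ligand that prevents the activation of MAIT cells, was given to mice 16 to 20, and its DMSO vehicle to mice 11 to 15, before the last CCl4 injection and daily after it. Livers were taken 2 days after that injection, and all mice, controls included, had been given CCl4, so no uninjured liver enters any comparison. From each liver 2 subsets of monocyte-derived macrophages (MoMac) were sorted as CD11b+ F4/80+ cells without CD3, CD11c or Ly6G, namely Ly6Chi cells, the recently recruited inflammatory monocytes, and Ly6Clo cells, described as restorative. This gave 4 groups of 5 libraries, each group 5 separate mice, and libraries sharing a number were taken as the same mouse.

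In glycolysis, hexokinases trap glucose as glucose 6-phosphate, phosphofructokinase commits it to breakdown, and the lower steps from Gapdh to pyruvate kinase recover ATP. Lactate dehydrogenase then turns pyruvate into lactate and renews the NAD+ that Gapdh consumes. The pentose phosphate pathway branches off at glucose 6-phosphate: its oxidative arm makes NADPH, used by phagocytes for the oxidative burst and for glutathione, and its non-oxidative arm returns pentoses to glycolysis. In macrophages, inflammatory activation is classically accompanied by high glycolysis under HIF-1.

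Each library held between 5693049 and 18682437 reads on genes. The Ly6Clo library of vehicle mouse 13 stood apart, with the fewest reads and 5343 genes above 0, where the other 19 libraries held 9017 to 15766. Results that it moved most are also given without mouse 13. The sort label was seen in the Ly6Chi markers: the 4 Ly6Chi monocyte markers Ly6c2, Ccr2, Vcan and F13a1 summed to between 27716 and 46602 normalized counts in Ly6Chi and between 3508 and 13275 in Ly6Clo libraries. The 6 Ly6Clo markers separated the subsets less well, with sums of 4296 to 22590.0 in Ly6Chi and 6820.4 to 49958 in Ly6Clo libraries. Treml4 and Ace were lower in Ly6Chi in 10 of 10 mice (limma, adjusted p under 0.05), Itgal, Spn and Cx3cr1 were lower in 8 or 9 mice without a call, and Nr4a1 was higher in Ly6Chi in 6 of 10. The Ly6Clo libraries also held RNA of other cell types. The 8 measured genes of a T and NK list summed to between 39540.4 and 86330 there, against 0 to 812 in Ly6Chi, and 4 of them, Gzma, Klrb1c, Ncr1 and Nkg7, all NK cell genes, were lower in Ly6Chi (limma, adjusted p under 0.05). A list of 10 neutrophil genes summed to between 10371 and 133722 in Ly6Clo and between 4433 and 14825 in Ly6Chi, with Retnlg, Cxcr2, Ngp and Camp lower in Ly6Chi and the early granule genes Mpo and Elane higher. The medians of the summed B, dendritic, hepatocyte and endothelial lists were 772, 1976, 1321 and 1391 in Ly6Clo against 212, 104, 526 and 140.5 in Ly6Chi, those of the erythroid and Kupffer lists 1333 and 285 against 272 and 86.2, and Itgax, which encodes the CD11c used to exclude cells, was lower in Ly6Chi. The part that these cells took in the differences between subsets below was not tested. In sorted bulk samples, fewer cells of a type and less RNA per cell cannot be told apart.

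To place the members that differed between subsets, the 250 bases upstream of the transcription start were read from RefSeq (GRCm38.p6). Of the 6 members called below, 5 had an entry and are shown 5′ to 3′ on the strand of the gene: Ldha, the member lower in Ly6Chi (chr7:46845554-46845803, plus strand), and the 4 higher there, Pkm (chr9:59656326-59656575, plus strand), Eno1 (chr4:150236947-150237196, plus strand), Pgd (chr4:149166706-149166955, minus strand) and Taldo1 (chr7:141391910-141392159, plus strand). Slc2a3 had none. Where RefSeq gave several starts for a gene, the one nearest the start of the gene in the deposited table was taken. Capitals mark ACGTG or GCGTG, the core of the hypoxia response element, read on either strand, so that CACGT and CACGC are its reverse.
Ldha: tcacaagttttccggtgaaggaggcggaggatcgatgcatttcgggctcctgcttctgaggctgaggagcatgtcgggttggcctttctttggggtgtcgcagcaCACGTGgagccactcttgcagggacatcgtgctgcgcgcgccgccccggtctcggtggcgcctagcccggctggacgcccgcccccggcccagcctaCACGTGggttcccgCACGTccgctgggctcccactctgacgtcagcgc
Pkm: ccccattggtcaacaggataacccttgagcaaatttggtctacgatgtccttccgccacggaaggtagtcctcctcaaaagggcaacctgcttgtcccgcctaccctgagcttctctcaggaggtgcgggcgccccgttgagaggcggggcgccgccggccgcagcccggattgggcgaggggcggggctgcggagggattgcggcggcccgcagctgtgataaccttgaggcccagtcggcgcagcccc
Eno1: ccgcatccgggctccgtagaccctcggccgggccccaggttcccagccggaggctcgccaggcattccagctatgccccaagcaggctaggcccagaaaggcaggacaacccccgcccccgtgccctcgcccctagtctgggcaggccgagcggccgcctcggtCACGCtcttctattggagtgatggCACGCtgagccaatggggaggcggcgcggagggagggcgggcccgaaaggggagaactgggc
Pgd: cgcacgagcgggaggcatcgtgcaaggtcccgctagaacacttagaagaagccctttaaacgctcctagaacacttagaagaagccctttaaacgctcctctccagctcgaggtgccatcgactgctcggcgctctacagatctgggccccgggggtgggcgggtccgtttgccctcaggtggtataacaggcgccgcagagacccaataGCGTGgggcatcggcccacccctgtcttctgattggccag
Taldo1: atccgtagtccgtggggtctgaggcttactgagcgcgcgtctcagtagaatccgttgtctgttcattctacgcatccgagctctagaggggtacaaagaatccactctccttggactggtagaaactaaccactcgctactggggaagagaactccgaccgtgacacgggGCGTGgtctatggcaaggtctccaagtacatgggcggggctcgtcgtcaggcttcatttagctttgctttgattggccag
Ldha held 5 copies, overlapping ones counted apart, Eno1 held 2, Pgd and Taldo1 held 1 each, and Pkm held 0 at this start. The counts depend on the start: over all entries of a gene, Ldha held 1 to 5 copies, Eno1 1 to 2, and Pgd and Pkm 0 to 1. The 32 members with an entry had 46 entries in all, of which 36 (78.3%) carried at least 1 copy, against 38.6% of all 32851 entries. ACGTG alone was in 16 of the 46 (34.8%), against 16.6% of all. The members and all entries were not matched for base composition, and a gene with several entries was counted at each. A copy is a description of the sequence and not a site of binding.

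Between the subsets, 6 of the 31 members measured differed. Pyruvate kinase, enolase and both pentose phosphate genes called (Pgd and Taldo1) were higher in Ly6Chi MoMac, by 1.23 to 1.91 times, while the glucose transporter Slc2a3 and lactate dehydrogenase A were higher in Ly6Clo MoMac. Each value is the within-mouse difference Ly6Chi minus Ly6Clo of log2(normalized count + 1) over 10 mice, tested with limma and adjusted over all 17248 genes. Over all genes 896 (5.19%) were called at an adjusted p under 0.05, with 303 (1.76%) higher and 593 (3.44%) lower in Ly6Chi, and of the members 4 were higher and 2 lower. The median difference of the 31 members was 0.30 with 20 above 0, against -0.03 with 48.8% above 0 over all genes. Without mouse 13 the members' median was 0.06 with 17 above 0 (54.8%), against -0.17 with 42.9% above 0 over all genes.

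**Figure D1:**
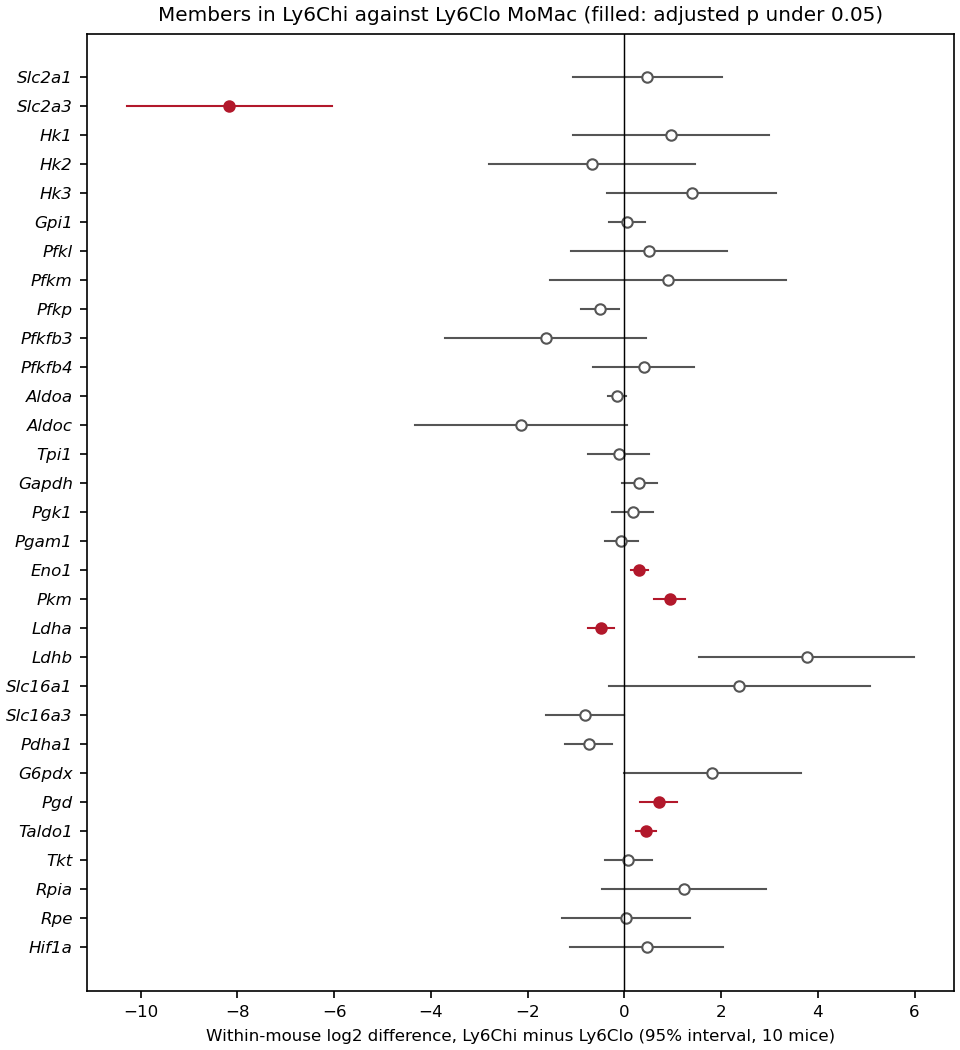
Each point is the mean within-mouse difference Ly6Chi minus Ly6Clo of log2(normalized count + 1) for 1 member over 10 mice, with its 95% confidence interval from limma. Filled points mark the 6 members with an adjusted p under 0.05, Slc2a3 lying far to the left at -8.17 and Pkm, Pgd, Taldo1 and Eno1 to the right of 0.

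Of the 2 glucose transporters, Slc2a3 (GLUT3, the high-affinity neuronal and leukocyte transporter, chr6:122727811-122742745 in mm10) separated the subsets completely. In Ly6Chi MoMac it was at 79.7, 0, 0, 0 and 0 normalized counts in vehicle mice 11 to 15 and at 0, 177, 0, 25.8 and 104 in Ac-6-FP mice 16 to 20. In Ly6Clo MoMac of the same mice it was at 2857, 1654, 2294, 411 and 1701 with vehicle and 2416, 829, 2484, 1069.9 and 3909 with Ac-6-FP. The highest Ly6Chi library lay below the lowest Ly6Clo library, and 6 of 10 Ly6Chi libraries were at 0, which allows up to 3 reads. The means were 38.7 ± 61.7 in Ly6Chi and 1963 ± 1045 in Ly6Clo (SD, n = 10 each). The difference was -8.17 ± 0.98 (SE) with a limma adjusted p of 0.0002, and its size depends on the pseudocount, from -10.17 at 0.1 to -6.11 at 10. It stayed under 0.05 in edgeR (-8.66, adjusted p = 0.0068) and without any one mouse. The 4 NK genes named above and Retnlg, Cxcr2, Ngp and Camp were also lower in Ly6Chi, whereas Mpo and Elane were higher, and the part of these cells in the Slc2a3 difference was not tested. Slc2a1 (GLUT1, the basal transporter), in contrast, had similar means, 330 ± 208 in Ly6Chi and 323 ± 220 in Ly6Clo, and a difference of 0.47 (95% interval -1.07 to 2.01), which was -0.21 without mouse 13.

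**Figure D2:**
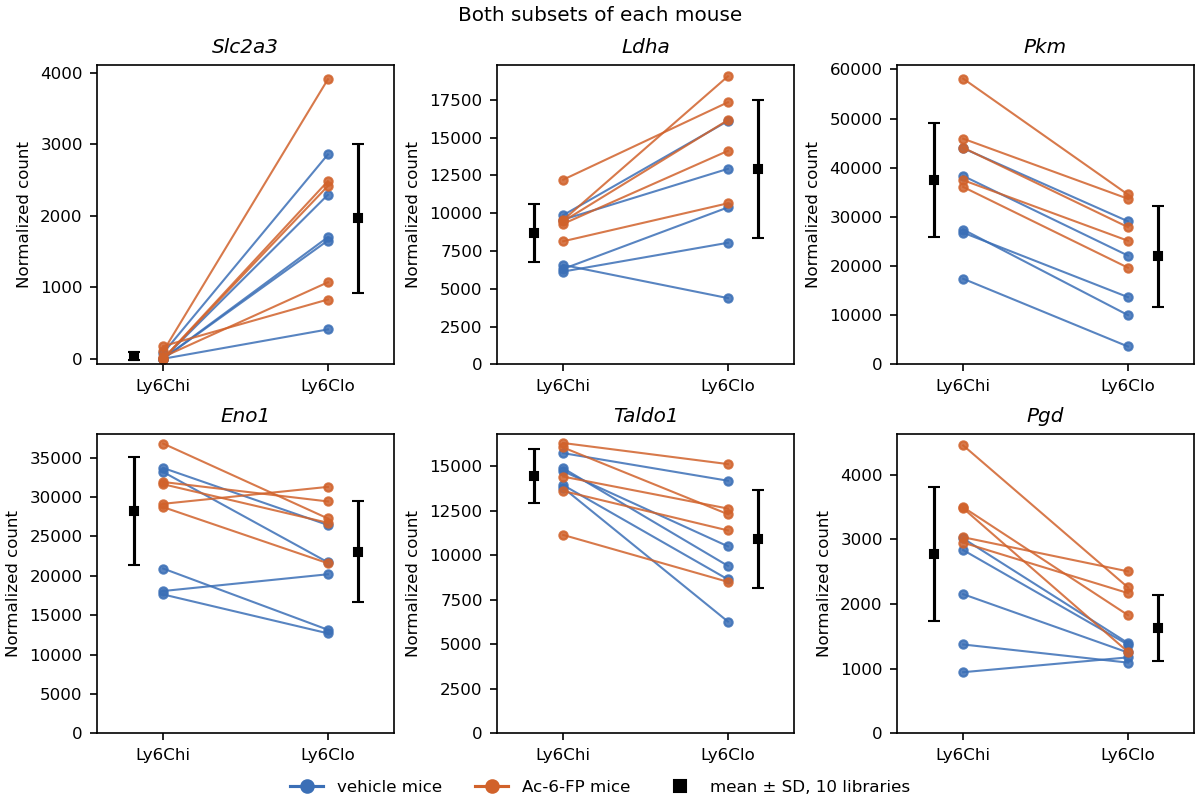
Normalized counts of the 6 members that differed between subsets are drawn for each mouse, with a line joining its Ly6Clo and Ly6Chi libraries and the treatment shown by colour. All 10 lines rise toward Ly6Chi for Pkm and Taldo1 and all 10 fall for Slc2a3, whereas 1 line runs against the others for Ldha and Pgd and 2 do for Eno1.

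None of the 3 hexokinases, which phosphorylate glucose, passed the test. Hk3, the form typical of myeloid cells, averaged 909.5 ± 459 normalized counts in Ly6Chi and 539 ± 284 in Ly6Clo and was higher in Ly6Chi in 8 of 10 mice (1.39, limma adjusted p = 0.42). The difference was 0.51 without mouse 14, whose Ly6Clo library was at 0. Hk1 was 399 ± 291 against 494 ± 372. Hk2, the inducible form that HIF-1 regulates, was low in both subsets, with 27.5 ± 20.8 in Ly6Chi and 65.6 ± 62.1 in Ly6Clo, and was lower in Ly6Chi in 7 of 10 mice.

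The upper steps, from Gpi1 to Tpi1, counted 9 members and none was called in the limma fit above. Aldoa, the aldolase of most tissues, was at 7842 to 18130.2 in Ly6Chi and 9052 to 21987 in Ly6Clo, and its difference was -0.16 (95% interval -0.34 to 0.02). Pfkp, the platelet form of phosphofructokinase, was lower in Ly6Chi in 9 of 10 mice, 1449.5 ± 656 against 2003 ± 699 normalized counts (-0.50, limma adjusted p = 0.17). Pfkp passed the threshold in 2 of the 20 alternatives described below. The liver form Pfkl gave 0.52, which was -0.30 without mouse 13, whose Ly6Clo library was at 0. The muscle form Pfkm and the regulators Pfkfb3 and Pfkfb4, which set the level of fructose 2,6-bisphosphate, had means of 6.19 to 105 normalized counts, with 2 to 7 of the 10 libraries of a subset at 0.

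In the lower steps, Pkm and Eno1 were higher in Ly6Chi MoMac, and Gapdh, Pgk1 and Pgam1 were not called. Pkm (chr9:59656368-59679375), which makes pyruvate and ATP, was at 43988.5, 26816, 17441, 27449 and 38358 normalized counts in Ly6Chi of vehicle mice 11 to 15 and at 36106, 45927, 37492, 44090.3 and 58138 in mice 16 to 20. In Ly6Clo the values were 29130.1, 13711, 3665, 10056 and 22159, then 19696, 33715, 25175, 27946.5 and 34579.5. The ranges of the subsets overlapped, yet Ly6Chi was higher in 10 of 10 mice. The difference was 0.94 ± 0.15 (SE), or 1.91 times, with a limma adjusted p of 0.0017, and it was 0.79 (adjusted p = 0.0002) without mouse 13. The call was lost when mice were not paired (limma adjusted p = 0.12). The counts do not separate the Pkm isoforms, and 14.0% of the 75-base stretches of its transcripts also occur in transcripts of other genes.

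Eno1 (chr4:150237197-150248875), the enolase of most tissues, was at 33695, 18069.9, 17634, 20926 and 33184 in Ly6Chi of mice 11 to 15 and at 28724, 31630.0, 29143, 31911 and 36792 in mice 16 to 20. In Ly6Clo it was at 26452, 20197, 12697.5, 13150.1 and 21714, then 21598, 26732, 31293, 29445 and 27282. Ly6Chi was higher in 8 of 10 mice, mice 12 and 18 being the exceptions. This was the member nearest the threshold on its inner side, at 0.30 ± 0.08 (SE) and a limma adjusted p of 0.0487. The adjusted p was 0.083 without mouse 13 and 0.060 in edgeR, and 44.3% of its stretches are shared with other transcripts, so the call is uncertain. Sharing was larger for Pgk1 (67.5%) and Gapdh (55.5%, with 118 other genes) and similar for Pgam1 (40.6%), whose counts carry the same doubt.

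Of the lactate and pyruvate genes, Ldha went in the other direction, and the rest of those tested were not called in the limma fit above. Ldha (chr7:46845804-46855626), the form that favours lactate, was at 9871, 6317, 6582, 6143 and 9577 normalized counts in Ly6Chi of mice 11 to 15 and at 8145, 9466, 9551, 9298 and 12217.5 in mice 16 to 20. In Ly6Clo it was at 16096, 10385, 4389, 8046 and 12934, then 10656, 16156, 19049, 14123 and 17333. Ly6Chi was lower in 9 of 10 mice, and the exception was mouse 13. The difference was -0.49 ± 0.12 (SE) with a limma adjusted p of 0.0373, and -0.61 with 0.0003 without mouse 13. Leaving out any other single mouse (11, 12 or 14 to 20) lifted the adjusted p to between 0.072 and 0.11, and edgeR gave 0.10.

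Ldhb, the form that favours pyruvate, lay just outside the threshold in limma. It was at 151 to 780.1 (median 241) in Ly6Chi and 0 to 508 (median 51.1) in Ly6Clo, and was higher in Ly6Chi in 9 of 10 mice. The difference was 3.77 (limma adjusted p = 0.054), and 3.12 with 0.073 without mouse 13. The Ly6Clo libraries of mice 13, 18 and 19 were at 0. Ldhb passed the threshold in 6 of the 20 alternatives described below. Pdha1, a subunit of the complex that feeds pyruvate to mitochondria, was lower in Ly6Chi in 10 of 10 mice, with 743 ± 235 against 1206 ± 306 normalized counts (-0.74, adjusted p = 0.090 in limma). The lactate exporter Slc16a3 (MCT4) averaged 273 ± 194 in Ly6Chi and 586 ± 461 in Ly6Clo and was lower in Ly6Chi in 7 mice and higher in 2, with both libraries of mouse 13 at 0 (limma adjusted p = 0.30). Slc16a1 (MCT1) was at 0 to 136 in Ly6Chi and at 0 to 34.3 in Ly6Clo (2.38, limma adjusted p = 0.36, and 1.85 without mouse 13).

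In the oxidative arm of the pentose phosphate pathway, Pgd (chr4:149149991-149166705), which makes the second NADPH, was at 2834, 2152, 1374, 945 and 3014 normalized counts in Ly6Chi of mice 11 to 15 and at 3479, 2949, 3497, 3033 and 4452 in mice 16 to 20. In Ly6Clo it was at 1373, 1250.1, 1094, 1174 and 1397, then 1261, 2169, 1829, 2505 and 2258. Ly6Chi was higher in 9 of 10 mice, by 0.70 ± 0.18 (SE) or 1.63 times (limma adjusted p = 0.0389), with mouse 14 the exception. Without mouse 13 the adjusted p was 0.0247 and without mouse 14 it was 0.0097, whereas leaving out any of the other 8 mice raised it to between 0.053 and 0.090. G6pdx, the entry enzyme that makes the first NADPH, was higher in Ly6Chi in 10 of 10 mice, 2521 ± 845 against 1395 ± 807 normalized counts. Its difference of 1.82 had an adjusted p of 0.30 with the 0 of mouse 13, and was 0.85 with 0.0184 without it (limma). On the genome it overlaps Ikbkg on the opposite strand, and whether strand was used in counting is not given in the sources used here.

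In the non-oxidative arm, Taldo1 (transaldolase, chr7:141392160-141402976) was higher in Ly6Chi in 10 of 10 mice. It was at 15728, 13933, 13778, 14879 and 14715 in Ly6Chi of mice 11 to 15 and at 14409.8, 13602.5, 11137, 16045 and 16296 in mice 16 to 20, against 14179.7, 8643, 6276, 9403 and 10498, then 12618, 11389.6, 8504, 12302 and 15113 in Ly6Clo. The Ly6Chi values were tight, 14452 ± 1500 against 10893 ± 2755 in Ly6Clo (SD, n = 10 each). The difference was 0.45 ± 0.09 (SE), or 1.36 times, with a limma adjusted p of 0.0145, and 0.37 with 0.0090 without mouse 13. Only leaving out mouse 15 took it past the threshold (0.0506). Transketolase, Tkt, which works beside Taldo1, had equal means, 3871 ± 1678 and 3887 ± 1877, and a difference of 0.08 (95% interval -0.40 to 0.57). The isomerase genes Rpia and Rpe were not called, and Hif1a, the transcription factor subunit listed as regulator, was at 182 ± 158 in Ly6Chi and 156 ± 158 in Ly6Clo.

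Within each treatment alone, limma called 0 members in vehicle mice, where 79 genes (0.458%) were called in all and 1318 genes and 5 members had an unadjusted p under 0.05. It called 2 members in Ac-6-FP mice, Pkm (0.66, adjusted p = 0.0206) and Ldha (-0.65, adjusted p = 0.0431), where 545 genes (3.16%) were called and 2960 genes and 13 members had an unadjusted p under 0.05. The mean differences in vehicle mice were 1.21 for Pkm and -0.33 for Ldha, and 0.95 and -0.56 without mouse 13. These fits were added after the data had been seen.

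**Figure D3:**
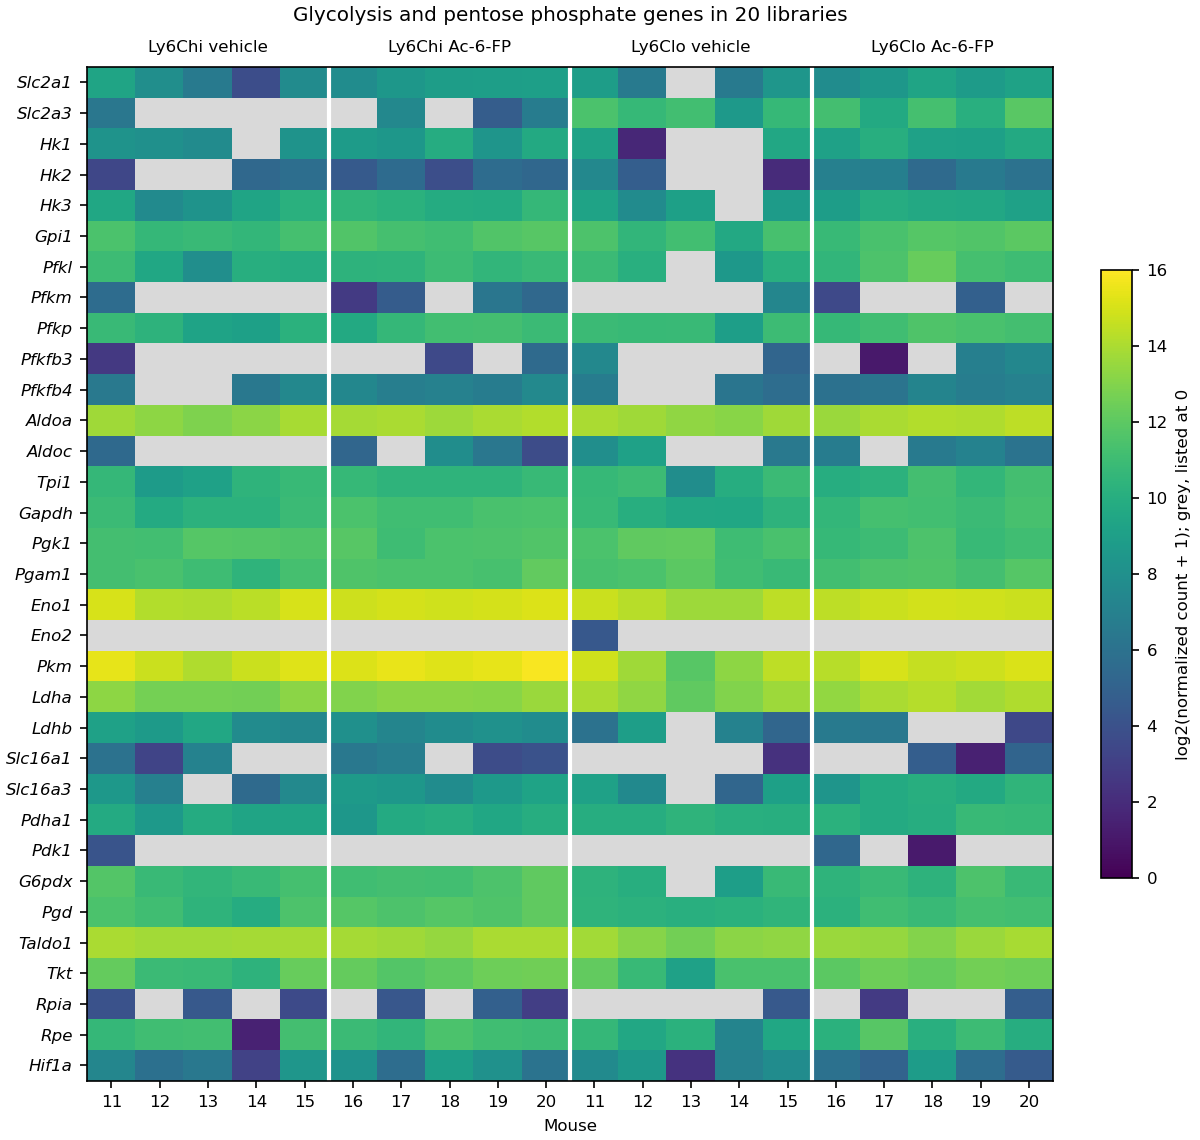
Colours give log2(normalized count + 1) of each member with a row (vertical) in each of the 20 libraries (horizontal), grouped by subset and treatment. Higher values are brighter, and grey marks a value of 0. Slc2a3 is grey or dark in the Ly6Chi libraries and brighter in the Ly6Clo libraries, and the mouse 13 Ly6Clo library shows 0 for Pfkl, Slc2a1 and G6pdx.

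The question of the study's design was whether Ac-6-FP changes the subsets and whether it does so unequally. No member was called. In Ly6Chi MoMac limma called 13 genes of 17248 (0.0754%) and 0 members, with 1506 genes and 7 members at an unadjusted p under 0.05. In Ly6Clo MoMac it called 9 genes (0.0522%) and 0 members, with 1605 genes and 8 members under 0.05 unadjusted. With 1 mouse left out, the members under 0.05 unadjusted numbered 1 (without mouse 20) to 17 (without mouse 11) in Ly6Chi and 4 to 12 (without mouse 11) in Ly6Clo. The all-gene numbers moved too, from 909 (without mouse 20) to 1890 (without mouse 11) in Ly6Chi. In Ly6Clo they went from 947 to 2310, at the same mice. Fits with genes detected as covariate had 1 member and 884 genes under 0.05 unadjusted in Ly6Chi, and 2 and 706 in Ly6Clo. For the difference between subsets in the change, limma without this covariate called 0 genes (0%), 840 at an unadjusted p under 0.05, and 0 members. On the recovered reads edgeR called 0 genes in each of these 3 comparisons, with 1541, 1614 and 313 at an unadjusted p under 0.05, and DESeq2 called 106, 72 and 86 genes and 0 members.

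The values of most members were nevertheless higher with Ac-6-FP than with vehicle. In Ly6Chi MoMac 29 of 31 members had a change above 0 with a median of 0.87, where over all genes 62.9% were above 0 with a median of 0.35. With 1 mouse left out, the members' median was 0.56 (without mouse 14) to 1.01 (without mouse 11), against 0.23 to 0.50 over all genes. In Ly6Clo MoMac 28 of 31 were above 0 with a median of 0.66, against 70.5% and 0.91 over all genes. With 1 mouse left out, the members' median there was 0.54 (without mouse 14) to 1.07 (without mouse 15), against 0.35 to 1.19 over all genes. Without mouse 13, 25 of 31 members were above 0 in Ly6Clo with a median of 0.59, against 61.9% and 0.35 over all genes, so that the members' median lay below that of all genes with this mouse and above it without. The number of genes detected moved with treatment: it was 9017 to 14606 (median 9749) in Ly6Chi vehicle and 11096 to 15587 (median 13622) in Ly6Chi Ac-6-FP libraries, and 5343 to 15723 (median 10379) and 11156 to 15766 (median 14084) in Ly6Clo. With this number as a covariate the counts above 0 were 23 and 22 of 31, with medians of 0.22 and 0.33, against 0.01 and 0.06 over all genes. Under quantile normalization, which brought the all-gene medians to -0.01 and 0.02, 27 and 25 members were above 0, with medians of 0.73 and 0.59. In Ly6Clo MoMac marker lists also moved with treatment. The 6 Ly6Clo monocyte and macrophage markers, all with a change above 0, summed to 6820.4 to 23605 (median 9954) in vehicle and 19120.3 to 49958 (median 36718) in Ac-6-FP libraries. The 5 macrophage markers summed to 16145 to 30856 and 24280 to 43666, and the 5 Kupffer cell markers to 0 to 337 (median 16.0) and 187 to 808 (median 356). Of the first list, Nr4a1 alone had medians of 1342 and 16433. The endothelial list had medians of 813 and 2070.4, the dendritic list of 1551 and 2482, the B cell list of 594 and 842, the erythroid list of 1883 and 429, the T and NK list of 56111 and 53371 and the neutrophil list of 40337 and 44269. In Ly6Chi MoMac the T and NK list had medians of 56.4 and 187, the endothelial list of 278 and 93.0, the Kupffer list of 115.0 and 57.4, and the 6 Ly6Clo markers of 8611 and 18489, of which Nr4a1 alone was at 3986 and 14002. By limma no gene of these lists was called with Ac-6-FP in either subset, and their part in the changes of the members was not tested.

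Gapdh, the step that makes NADH, had the smallest p in both subsets. In Ly6Chi MoMac it was at 1882, 889.5, 1248, 1253 and 1949 normalized counts in vehicle mice 11 to 15 and at 2803, 2218, 2154, 2688 and 2862 in Ac-6-FP mice 16 to 20, so that the groups did not overlap. In Ly6Clo MoMac it was at 1769, 1057, 768, 744 and 1309 with vehicle and 1534, 2511, 2304, 1936 and 2596 with Ac-6-FP, the groups overlapping through mice 11 and 16. The changes were 0.87 ± 0.22 (SE) and 1.00 ± 0.28, at limma adjusted p-values of 0.37 and 0.50, which do not pass. With genes detected as covariate they were 0.50 and 0.71.

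The next smallest p belonged to Pgd and Hk3 in Ly6Chi and to Pgd and Tkt in Ly6Clo. Pgd, whose values stand above, had all 5 Ly6Chi Ac-6-FP libraries at 2949 or more, while vehicle libraries reached 3014, and a change of 0.87 there and 0.64 in Ly6Clo (limma adjusted p = 0.54 and 0.53). Hk3 was at 734, 203, 301, 643 and 1127.5 in Ly6Chi with vehicle and at 1413, 1212, 937, 889 and 1636 with Ac-6-FP. In Ly6Clo it was at 622, 212, 536, 0 and 430.1, then 489, 976, 794, 768 and 559. Its groups overlapped in both subsets, and its changes were 1.23 and 2.48 (limma adjusted p = 0.54 and 0.59). Without mouse 14, the one at 0, the Ly6Clo change was 0.73. Tkt was at 4740.1, 1957, 1820.4, 1278 and 4895, then 4783, 3372, 4195, 5684 and 5985 in Ly6Chi. In Ly6Clo it was at 4621, 1767, 569.8, 2763 and 2697 with vehicle and 4076, 5674, 4685, 6256 and 5766 with Ac-6-FP. There the 4 vehicle libraries other than mouse 11 lay below all Ac-6-FP libraries, and the change was 1.36 ± 0.49 (SE, limma adjusted p = 0.53), or 0.90 without mouse 13. Over the 19 alternatives described below, the changes in Ly6Chi ranged from 0.47 to 1.04 for Pgd and from 0.65 to 1.52 for Hk3. In Ly6Clo they ranged from 0.51 to 0.80 for Pgd, from 0.73 to 3.14 for Hk3 and from 0.66 to 1.66 for Tkt.

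**Figure D4:**
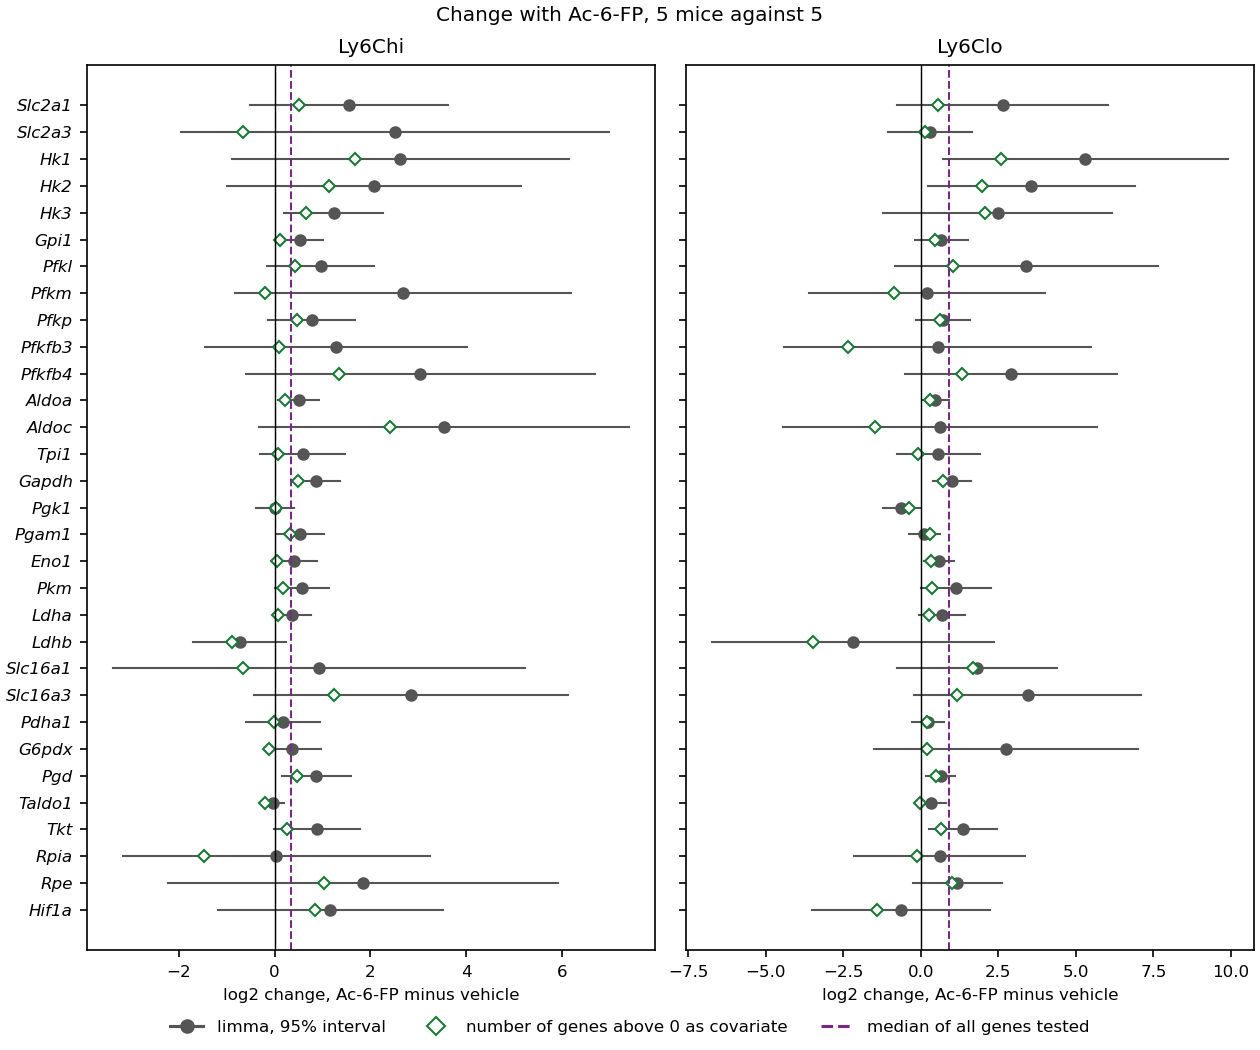
The change with Ac-6-FP (mean log2 of 5 Ac-6-FP mice minus 5 vehicle mice) is drawn for each member in Ly6Chi and in Ly6Clo MoMac with its 95% confidence interval from limma, dashed lines giving the median of all genes (0.35 and 0.91, the second being 0.35 without mouse 13). Most points lie right of 0, and none passed an adjusted p of 0.05.

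For the difference between subsets in the change with Ac-6-FP, the 3 members with the smallest p were Taldo1, Pkm and Pfkl, each with a smaller Ly6Chi minus Ly6Clo difference in Ac-6-FP mice. The within-mouse difference of Taldo1 averaged 0.62 ± 0.36 in vehicle and 0.27 ± 0.12 in Ac-6-FP mice (SD, n = 5 each), that of Pkm 1.21 ± 0.66 and 0.66 ± 0.16. For Pfkl, at 2017, 729, 235, 1058 and 945 in Ly6Chi with vehicle, 1322, 1385, 1999, 1455 and 1834 with Ac-6-FP, 1946, 1072, 0, 374 and 1077 in Ly6Clo with vehicle and 1448, 2950.1, 5084, 2514 and 2065 with Ac-6-FP, it averaged 1.74 ± 3.52 and -0.71 ± 0.54. In all 5 Ac-6-FP mice Pfkl was lower in Ly6Chi, and in vehicle mice in 2 of 5. The limma adjusted p was 0.83 for each of the 3, so none differed beyond the spread between mice. Without mouse 13, which had the largest vehicle difference for each of the 3, the values were -0.23, -0.29 and -0.91, against -0.36, -0.55 and -2.44 with it.

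Slc2a3 itself was not called with treatment in either subset. In Ly6Clo MoMac it averaged 1783 ± 911 with vehicle and 2142 ± 1244 with Ac-6-FP (SD, n = 5 each), a change of 0.29 (95% interval -1.06 to 1.64). In Ly6Chi MoMac 4 of 5 vehicle and 2 of 5 Ac-6-FP libraries were at 0, and the change was 2.52 (95% interval -1.95 to 6.99). With genes detected as covariate its sign turned, at -0.656. The difference between subsets in the change was 2.23 ± 1.93 (SE). For Ldha the change was 0.36 in Ly6Chi and 0.68 in Ly6Clo, with intervals from -0.03 to 0.75 and from -0.07 to 1.42, and without mouse 13 the change in Ly6Clo was 0.40. For Taldo1 it was -0.04 in Ly6Chi (95% interval -0.28 to 0.20) and 0.32 in Ly6Clo (95% interval -0.19 to 0.82), which was 0.17 without mouse 13.

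Of 78 other genes of glucose, pyruvate and pentose phosphate metabolism and of the HIF axis, 66 had a row and 59 passed the filter. Between subsets 0 were higher and 2 lower in Ly6Chi by limma, against the background shares above, with 8 at an unadjusted p under 0.05. Without mouse 13 limma called 2 higher (Dera and Mpc1) and 3 lower, with 14 at an unadjusted p under 0.05. Over all 17248 genes that fit called 394 higher and 768 lower, with 3304 under 0.05 unadjusted. With genes detected as covariate limma called 3 higher (Dera, Khk and Ndrg1) and 3 lower, with 19 under 0.05 unadjusted. Over all 17248 genes that fit called 979 higher and 723 lower, with 4128 under 0.05 unadjusted. Eno3, the muscle enolase, was at 0 to 732 normalized counts (median 145) in Ly6Chi and at 5630 to 17421 (median 9029.7) in Ly6Clo, without overlap (-6.24, limma adjusted p = 6.6e-05). Ldhc, the testis form of lactate dehydrogenase, which lies next to Ldha on chromosome 7, was at 0 in all 10 Ly6Chi libraries and above 0 in 7 of 10 Ly6Clo libraries, up to 524 in that of mouse 13 (limma adjusted p = 0.0222, and 0.16 in edgeR). Of the 21 HIF axis genes tested 0 were called by limma, with 2 at an unadjusted p under 0.05. Their median difference was -0.56 with 5 above 0 (23.8%), against -0.03 and 48.8% over all genes, and -0.12 with 7 above 0 with genes detected as covariate. The covariate fit called Ndrg1 higher and P4ha1 lower among them, with 4 at an unadjusted p under 0.05, and the fit without mouse 13 called Myc lower. Dera, Mpc1, Khk, Ndrg1, P4ha1 and Myc were chosen here after their values were seen. With Ac-6-FP 0 of the 59 were called in either subset or for the difference between them, with 4, 4 and 2 at an unadjusted p under 0.05 and 0 called by edgeR (5, 4 and 1).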

How the data were processed

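RNA of sorted Ly6Chi and Ly6Clo MoMac was sequenced in 20 libraries (reads of 75 bases). The authors aligned reads with STAR 2.4.0 to mm10, counted those on constitutive regions of FAST DB genes and normalized the counts with DESeq2. The deposited values are a signal, gene counts divided by 1 size factor per library, on a linear scale and not divided by gene length. Division by each library's step gave whole reads for 99.9988% of values, within 0.1 read. For mouse 15 the Ly6Chi step was nearly 1, where whole reads are hard to tell, and read-based tests were repeated without this mouse. No column of another sample was present.

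Values were analysed as log2(normalized count + 1) with limma 3.58.1 in R 4.3.3, with a variance prior trended on the mean level and Benjamini-Hochberg adjustment over 17248 genes, and summarised with Python 3.11.15. Alternatives were pseudocounts of 0.1 and 10, no filter, a filter at 100, quantile normalization, genes detected as covariate, no pairing, edgeR 4.0.16 and DESeq2 1.42.0 on recovered reads, and each mouse left out. Genes whose DESeq2 fit did not converge (1075 to 3242 per comparison) were given no estimate and no p. The limma fits were also run on simulated counts with a common spread and without mouse effects or added zeros. Such a run cannot test how the fits handle those features of the data. Pairing was taken from the labels: they give a number to each library, which was read as the mouse whose liver gave both subsets. Residuals of libraries of the same mouse correlated with a median r of 0.0338 (10 pairs), those of different mice with -0.00319 (90 pairs). The ranges overlapped, at 0.00334 to 0.250 and -0.114 to 0.129. All members were named by exact symbol. Of the Ly6Chi monocyte markers, 1 is not reported here. Values in every library were printed for members called in a comparison and, where fewer than 3 were called, for the 3 with the smallest p. Members and lists were chosen with earlier results of these data known. Intervals and limits of 0 cover counting error or spread between mice only, and the reads carry no molecular identifiers. Shared stretches were read from GENCODE M21 transcripts.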

Additional observations from a re-analysis of the deposited data

Results flagged for a closer look

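In 11 cases 1 library lay far from the other 4 of its group on the log2 scale, out of 117 groups of 5 libraries examined (the 31 members measured in 4 groups, leaving out groups in which 4 or more libraries were equal, such as Slc2a3 in Ly6Chi vehicle), where chance sets apart about 1 in 20 groups. In the Ly6Clo library of vehicle mouse 13, the one with the fewest genes detected, Pfkl was at 0 (374 to 1946 normalized counts in the other 4 mice), Slc2a1 at 0 (90.4 to 479), G6pdx at 0 (491 to 1846) and Hif1a at 4.17 (130 to 373), while Pdha1 was the highest of its group at 1359 (996 to 1074). In the Ly6Clo library of vehicle mouse 14, Hk3 was at 0 (212 to 622), Slc2a3 at 411 (1654 to 2857) and Pfkp at 502 (1730 to 1991). In the Ly6Chi library of the same mouse, Hk1 was at 0 (208 to 299) and Rpe at 1.93 (1635 to 2411). In Ly6Clo of Ac-6-FP mouse 17, Aldoc was at 0 (67.7 to 138). The 11 cases thus fell in 4 libraries.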

How the results depend on the processing

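The comparison of subsets called 6 members and, depending on the setting, 2 to 9. It called 3 without a filter, 3 with no replicate block (mice not paired), 3 in edgeR without mouse 15 (chosen after seeing the data), and 2 to 6 with 1 mouse left out. Slc2a3 stayed under an adjusted p of 0.05 in all 20 alternatives, Taldo1 and Pkm in 19, Pgd in 9, Ldha and Eno1 in 6 each. Over all genes, 467 to 1702 were called, against 896. Of 614 values of that comparison, 544 kept direction and side of the threshold, 41 lost the call, 13 gained it and 16 changed sign. The gains were 6 for Ldhb, 2 each for Pfkp, Pdha1 and G6pdx, and 1 for Slc16a3. With 1 mouse left out, the difference changed sign for 7 members: it ranged from -0.212 to 0.829 for Slc2a1, from -0.0383 to 0.146 for Gpi1, from -0.303 to 0.723 for Pfkl, from -0.277 to 0.110 for Tpi1, from -0.123 to 0.0289 for Pgam1, from -0.0924 to 0.217 for Tkt and from -0.148 to 0.674 for Rpe. Rpe was also -0.0140 at a pseudocount of 0.1.

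With Ac-6-FP, 0 members were called under every alternative run, in either subset or for the difference. Over all genes the alternatives called 0 to 133 in Ly6Chi and 0 to 103 in Ly6Clo, the highest without mouse 11, and 0 to 86 for the difference, the highest with DESeq2. Single changes were followed for 16 members in each subset and 5 for the difference, which include each one given in the text, and sign changes of the other members were not listed. The change of Slc2a3 in Ly6Chi, 2.52, was -0.656 with genes detected as covariate and 1.28 to 3.84 in the other 17 alternatives that gave a value, and ranged from -0.175 to 0.578 in Ly6Clo with 1 mouse left out. That of Taldo1 ranged from -0.0928 to 0.0445 in Ly6Chi with 1 mouse left out and was -0.0316 in Ly6Clo with the covariate. The causes were not tested.

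A value of 0 allows 3 reads, which is 1.87 to 6.26 normalized counts depending on the library. Values of 0 were not confined to low members or to libraries with few reads. In the Ly6Clo library of vehicle mouse 14, with 14265978 reads, Hk3 was at 0, against 212 to 622 in the other vehicle mice.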
